A study of Mus musculus with 6 samples.

Results

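The transition from dividing retinal progenitor cells (RPCs) to neurogenic cells was measured inside each of 6 single-cell RNA libraries from embryonic mouse retina. Its members are the 53739 of 67050 cells (80.1%) that the authors' cell table calls either RPCs (40882 cells) or neurogenic cells (12857 cells). For each library the UMIs (unique molecular identifiers, each counting 1 captured transcript) of all its RPCs and of all its neurogenic cells were summed. The difference between the sums, on the log2 scale of CPM (UMI counts scaled to a common total per profile, with edgeR's TMM factors), is called the step of a gene. A positive step means a higher level in neurogenic cells than in RPCs of the same library.

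All 6 libraries came from retinas of embryonic day 14 and fall into 3 genotypes with 2 libraries each. The first is Bax null with wild-type Atoh7, here called Bax null. The second, Bax null Atoh7 null, lacks both genes and is called the combined null. The third, Bax het Atoh7 null, is heterozygous for Bax and null for Atoh7 and is called the Bax het group. The last 2 groups together are the 4 Atoh7 null libraries. Every group therefore carries at least 1 mutant Bax allele, and the Bax null and Bax het groups differ in both genes. Values are given for Bax null replicates 1 and 2, then the combined null, then the Bax het group. The construction of the alleles and the number of embryos behind a library are not given in the sources used here, so p-values measure the spread between these libraries, which may be technical.

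Progenitors of the retina divide under Notch signalling, in which ligands on one cell activate receptors on its neighbour and switch on the repressors Hes1 and Hes5. Cells that leave this state raise proneural bHLH factors and Notch ligands, pass a last division and become ganglion cells, cones, horizontal cells or amacrine cells at this age. Atoh7 is the proneural factor known to be needed for most ganglion cells, and Bax is a pro-apoptotic gene whose loss keeps cells alive that would otherwise die.

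The 2 Bax null libraries stood apart from the other 4 in properties that both cell types shared. Median UMIs per RPC were 5869 and 6977 in Bax null and 1713 to 2836 elsewhere, and per neurogenic cell 5807 and 7141.5 against 1532 to 2393. Mitochondrial transcripts took 3.76% to 3.93% of UMIs in Bax null and 1.05% to 1.16% elsewhere, and 7 blood genes summed to 1092 to 1407 CPM against 7.81 to 212 CPM. Summed UMIs were 14053912 to 38954120 for RPCs and 4416522 to 14099758 for neurogenic cells. The step removes what RPCs and neurogenic cells of 1 library share, but not all of it: the ratio of median UMIs of neurogenic cells to RPCs was 0.989 and 1.02 in Bax null and 0.844 to 0.900 elsewhere. Since these are the only 2 libraries with wild-type Atoh7, depth, library and Atoh7 genotype cannot be told apart, in a level or in a step difference. As a share of both types, neurogenic cells took 22.5% ± 1.80 (SD, n = 2) of the Bax null libraries, 24.2% ± 2.59 of the combined null and 25.1% ± 2.25 of the Bax het group. The 6 libraries ranged from 21.2% to 26.7%, and the 3 groups overlapped.

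Atoh7 followed the labels. On a CPM scale of all UMIs of a profile, without TMM factors, it stood at 22.5 and 21.1 in the neurogenic cells of the Bax null libraries (255 and 298 UMIs) and at 0.57 and 0.488 in their RPCs. No Atoh7 UMI was found in the 8 profiles of the Atoh7 null libraries, where a count of 0 allows up to 0.679 on that scale in the shallowest. Bax transcripts in neurogenic cells stood, on the same scale, at 17.9 and 14.6 in Bax null, 53.9 and 10.9 in the combined null, and 143 and 107 in the Bax het group. Replicate 1 of the combined null thus held more Bax RNA than the 3 other libraries labelled as lacking Bax. Reads from the 3′ end of a gene do not show which part of it is deleted. The same replicate also shared 2168 cell barcodes with replicate 2 (17.7% of its cells of both types and 22.7% of those of replicate 2), where other pairs shared 75 to 144. Of those cells 92.5% carried the same type label in both, and the profiles of a shared barcode correlated more (median 0.617) than those of neighbouring barcodes (0.467). These 2 libraries are therefore not fully separate samples. Without the shared barcodes, 1340 steps differed between the 4 Atoh7 null libraries and Bax null, against 1582 with them.

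The type labels were checked against their markers. Summed over 15 neurogenic markers, neurogenic cells reached 4679 to 5293 CPM in Bax null and 6881 to 7459 CPM in the Atoh7 null libraries, and RPCs 609.6 to 638 against 721 to 796 CPM. Over 12 RPC markers, RPCs reached 10657 to 10891 against 8568 to 9221 CPM and neurogenic cells 6179 to 6817 against 4259 to 4866 CPM. Both sums separated the types in every library, and within a type the genotypes did not overlap. Without TMM factors the order of the genotypes in the RPC markers of RPCs turned, to 8105 to 8210 against 9524 to 11336 CPM. In neurogenic cells the RPC markers then overlapped, at 4848 to 5321 against 4737 to 5644 CPM. The TMM factors were 0.754 to 0.785 in Bax null profiles and 1.10 to 1.23 in the others. Levels are given on the TMM scale unless stated, and an overlap between genotypes can come or go without it.

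Markers of the retinal pigment epithelium (Rpe65 at 0), the lens and microglia each summed to no more than 12.3 CPM in any profile, and endothelial markers to 34.9 to 69.9 CPM. Mesenchymal markers stood at 16.9 to 18.9 CPM in Bax null RPCs against 5.50 to 8.19 CPM, and in neurogenic cells at 8.09 to 9.09 against 1.31 to 2.34 CPM. Of 8 ganglion cell markers in RPCs, Stmn2, Nefm and Ebf3 were higher in all 4 Atoh7 null libraries (Stmn2 39.3 to 59.1 against 22.7 and 19.4 CPM), Sncg and Pou4f2 were lower (Sncg at most 2.16 CPM against at least 6.61 CPM) and 3 overlapped. Cone markers in RPCs summed to 22.4 to 26.9 CPM in Bax null and 26.2 to 35.8 CPM elsewhere, which overlap. Some clusters held markers of other cells among their 10 leading genes. Those of neurogenic cluster 85 (439 cells) included Ptf1a, a horizontal and amacrine marker, and no neurogenic marker. Neurogenic clusters 4, 61, 111, 113, 134, 142 and 150 also had no neurogenic marker there, and most RPC clusters no RPC marker. A missing marker alone thus does not go against a label. RPC clusters 83 and 149 were led by pigment cell genes such as Pmel and Dct, 145 by mesenchymal genes such as Prrx1 and Col1a2, and 151 by endothelial genes such as Plvap and Cd34 (393 of the 40882 RPCs). Without these 4 clusters 1649 steps differed between the 4 Atoh7 null libraries and Bax null, and without cluster 85 1616, against 1582 with them. The authors' clusters were not spread evenly: 12 RPC clusters drawn mainly from Bax null held 53.2% of the Bax null RPCs and 3.12% of the Atoh7 null RPCs. The 79 clusters (59 RPC, 20 neurogenic, 40830 cells) with at least 10 cells in every library are called the shared clusters, and results that move when only these are used are given with both values.

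Most of the step was common to the 6 libraries. Of 13371 genes tested, 197 (1.47%) had a mean step of at least 2-fold higher in neurogenic cells, with both genotypes weighted equally, a step above 0 in all 6 libraries and 20 CPM or more in at least one of the cell types. By the same rule 136 (1.02%) were lower. A gene of either class may thus have a step under 2-fold in single libraries. Because cell types were assigned from the same transcripts, these steps are descriptions and carry no test. Across 5972 genes at 20 CPM, the steps of the Bax null replicates correlated at 0.974, those of pairs of Atoh7 null libraries at 0.962 to 0.969, and those of pairs across at 0.904 to 0.931. Genes are not independent replicates, and the pairs share libraries.

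The genes with the highest steps were Sstr2 (a somatostatin receptor), Olig2 (a bHLH factor of neurogenic progenitors), Onecut1 (a factor of horizontal and ganglion cells), Tfap2d, Hes2, the Notch ligand Dll4, Penk (proenkephalin), 3110035E14Rik, Dlx1 and the proneural factor Neurod4. Sstr2 had steps of 6.85 and 6.72 in Bax null and 5.68 to 6.54 in the Atoh7 null libraries, and Olig2 of 6.52 and 5.98 against 5.78 to 6.65. The lowest steps belonged to Aldh1a3 and Aldh1a1 (retinoic acid synthesis), Wfdc1, Rhoj, the D-type cyclin Ccnd2, the bHLH inhibitor Id3, Cp (ceruloplasmin), Cpne5, Cyr61 and E530001K10Rik. Ccnd2 had steps of -1.90 and -1.71 in Bax null and -1.99 to -2.90 in the Atoh7 null libraries. The plot of steps in Atoh7 null against Bax null libraries shows both ends of this range.

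**Figure D1:**
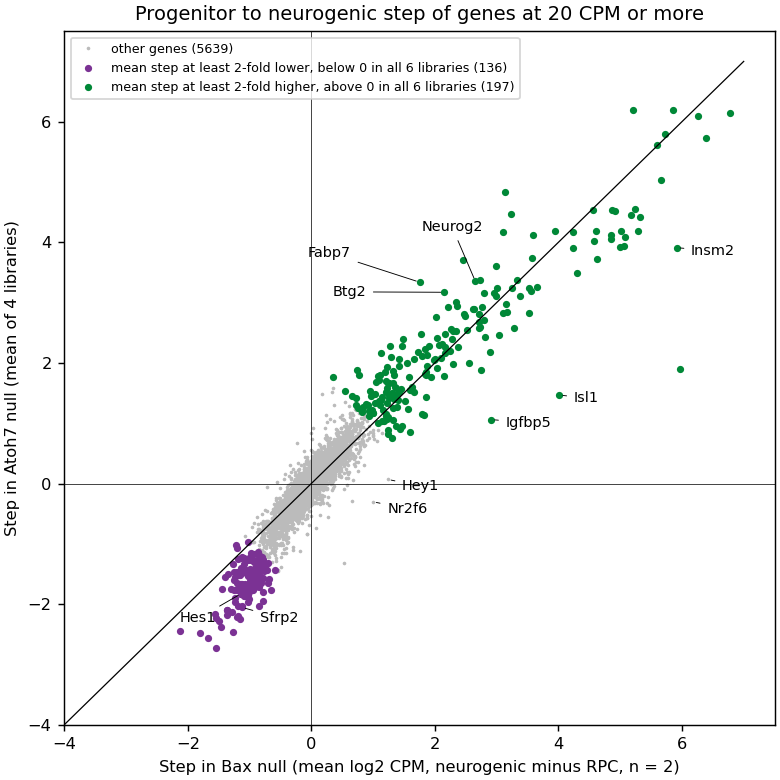
Each point is 1 of 5972 genes at 20 CPM or more; the x axis is its mean step (log2, neurogenic minus RPC) in the 2 Bax null libraries and the y axis its mean step in the 4 Atoh7 null libraries. Genes of the class lower in neurogenic cells lie mostly below the diagonal, with a median step difference of -0.60 over 136 genes.

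The size of the step differed between the 4 Atoh7 null libraries and Bax null for many genes. Under edgeR's quasi-likelihood test with library as a block and Benjamini-Hochberg adjustment, 1582 of 13371 genes (11.8%) had a different step in the 4 Atoh7 null libraries than in Bax null at an adjusted p under 0.05. The step was higher in the Atoh7 null libraries for 861 (6.44%) and lower for 721 (5.39%). Among genes at 20 CPM or more, 685 were called higher and 498 lower, together 19.8%. These shares are the background for every count of list members called below. For 605 of them the difference was at least 0.5 on the log2 scale and for 188 at least 1. Without TMM scaling the split turned to 540 higher and 1011 lower, while the median difference of all genes moved only from 0.01 to -0.04. The steps of the 2 Bax null and the 4 Atoh7 null libraries did not overlap for 1517 of the 1582, and for 30.3% of all genes tested. DESeq2 called 397, and edgeR called 536 without Bax null replicate 2.

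Each Atoh7 null genotype also differed from Bax null by itself. The step differed for 997 genes (7.46%; 563 or 4.21% higher, 434 or 3.25% lower) in the combined null and for 1116 genes (8.35%; 564 or 4.22% higher, 552 or 4.13% lower) in the Bax het group. Without TMM scaling the splits were 321 higher and 656 lower, and 410 higher and 708 lower. Both comparisons use the same Bax null libraries, so their likeness is not independent. Between the 2 Atoh7 null genotypes, which differ in Bax, edgeR called 0 genes (0.0%), with 640 at an unadjusted p under 0.05; DESeq2 and limma also called 0.

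Genes that were lower in neurogenic cells were lower still in the Atoh7 null libraries. Of the 136 genes of this class, 102 had a deeper step in the Atoh7 null libraries by the test and 0 a shallower one (0 also at an unadjusted p under 0.05), beside 721 lower and 861 higher among all 13371 tested. DESeq2 called 60 deeper and 0 shallower. The median step of the class was -1.14 and -0.92 in Bax null, -1.36 and -1.68 in the combined null, and -1.55 and -1.66 in the Bax het group. When the class was drawn from Bax null steps alone, 50 of 75 genes had a deeper step and 0 a shallower one. In the shared clusters the count was 43 of 136 and the median difference -0.32, and without Bax null replicate 2 it was 64.

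The class of 197 genes higher in neurogenic cells split in both directions. The step was larger in the Atoh7 null libraries for 56 and smaller for 43, with a median difference of 0.09. Median steps were 1.97 and 1.78 in Bax null, 2.03 and 2.22 in the combined null, and 2.04 and 2.10 in the Bax het group. In the shared clusters the counts were 33 larger and 64 smaller, so the balance between larger and smaller steps depended on which clusters were included. Without Bax null replicate 2 they were 30 and 28.

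**Figure D2:**
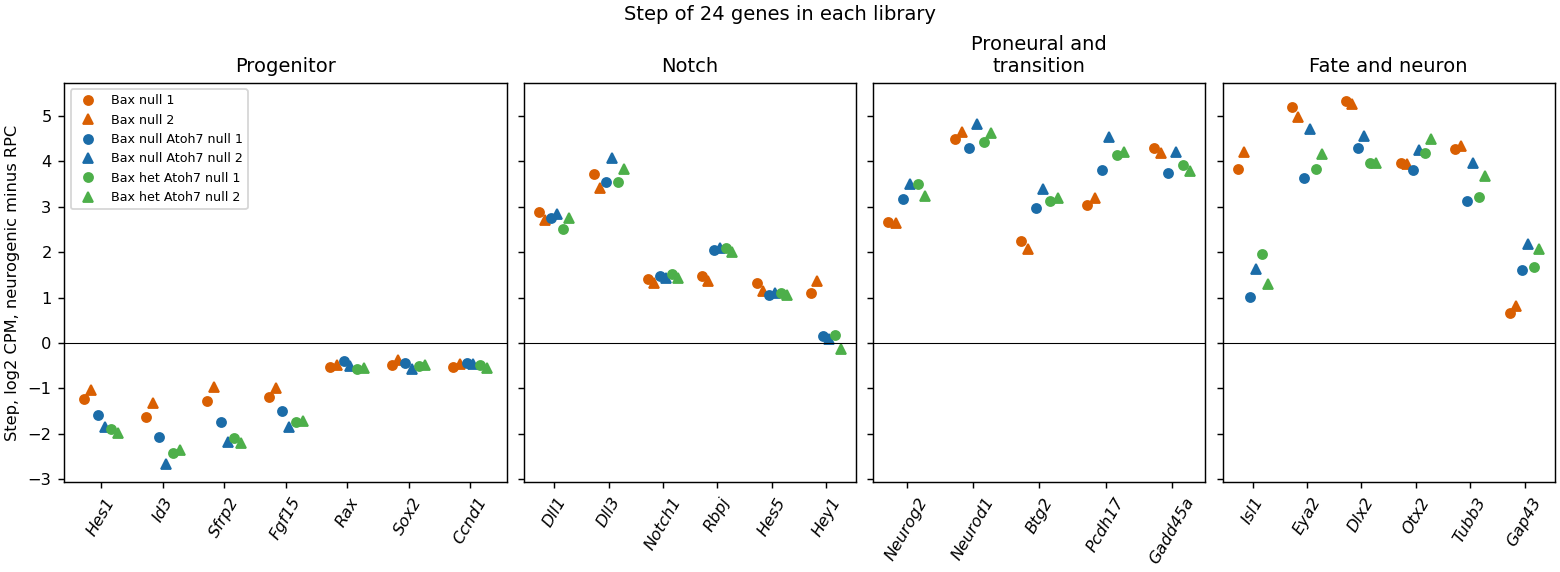
Steps (log2, neurogenic minus RPC) of 24 genes, 1 point per library, by genotype. For Sfrp2, Id3 and Hes1 the 4 Atoh7 null libraries lie below both Bax null libraries, for Btg2 and Neurog2 above them, and for Dll1 and Dll3 the groups overlap.

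Among 20 genes of progenitor identity and maintenance, 18 were lower in neurogenic cells in all 6 libraries (28.3% of all genes tested were) and 14 had a lower step in the Atoh7 null libraries, while 0 had a higher one (1 at an unadjusted p under 0.05, Id1). The median step was -0.91 (all genes -0.02) and the median difference -0.34 (all genes 0.01). One of the 14 is Hes5, described with the Notch targets, whose steps were above 0 and whose lower step is thus a smaller rise. Rax, Sox2, Sox9, Id1, Nr2f2 and Zfp36l2 did not pass the test. Rax, an eye field factor, had steps of -0.53 and -0.48 in Bax null and -0.40 to -0.57 in the other 4 libraries, a difference of 0.00 ± 0.04 (SE, edgeR adjusted p = 0.982). Sox2, a factor of the progenitor state, differed by -0.06 ± 0.05 (edgeR adjusted p = 0.452).

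Sfrp2, a secreted Wnt inhibitor on chromosome 3 (83766321-83774316, + strand, GRCm38), was lower in neurogenic cells in every library. Its RPC level was 2086 and 2001 CPM in Bax null, 2315 and 2573 in the combined null, and 2465 and 2514 in the Bax het group. Its neurogenic level was 864 and 1015, 690.1 and 567, and 579 and 548 CPM in the same order. On the TMM scale all 4 Atoh7 null libraries were therefore higher than Bax null in RPCs and lower in neurogenic cells. After thinning each cell to 1000 UMIs, the share of neurogenic cells with an Sfrp2 UMI overlapped, at 27.8% and 34.3% against 27.1% to 38.1%. In RPCs it did not, at 75.7% and 73.6% against 85.7% to 90.3%. The steps were -1.27, -0.98, -1.75, -2.18, -2.09 and -2.20, a difference of -0.93 ± 0.06 (SE, edgeR adjusted p = 1.32e-14); in the shared clusters it was -0.47 (edgeR adjusted p = 1.46e-11).

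Id3 binds bHLH partners and keeps proneural factors from acting. It stood at 1428 and 1518 CPM in Bax null RPCs and 784 to 947 in Atoh7 null RPCs, and at 465 and 608 against 144 to 226 CPM in neurogenic cells. Both types were lower in all 4 Atoh7 null libraries, and the neurogenic cells more so. The Id3 steps of -1.62 and -1.32 against -2.06, -2.67, -2.42 and -2.37 differed by -0.89 ± 0.07 (SE, edgeR adjusted p = 1.62e-12), and by -0.57 in the shared clusters. Its relative Id2 differed by -0.68 (edgeR adjusted p = 1.04e-10), while Id1 did not pass the test.

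Growth factor and Wnt pathway genes were tested as a list of 26, of which 25 could be tested. In neurogenic cells 18 were lower in all 6 libraries. In the Atoh7 null libraries 9 had a lower and 0 a higher step (5.39% and 6.44% of all genes tested), with a median difference of -0.26. Ptch1 was higher at an unadjusted p under 0.05. The 9 were Fgf3, Fgf9, Fgf15, Etv1, Etv5, Sfrp2, Fzd5, Lef1 and Tcf7l2; Fzd5 lost the call without Bax null replicate 2 (edgeR adjusted p = 0.0521). Fgf15, a secreted FGF of the progenitor zone, had steps of -1.19 and -1.0 in Bax null and -1.49 to -1.85 in the Atoh7 null libraries. That difference of -0.61 ± 0.05 (SE, edgeR adjusted p = 1.45e-11) was -0.24 in the shared clusters. Etv5, a transcription factor induced by FGF signalling, had steps of -0.88 and -0.69 against -1.69 to -2.19, a difference of -1.20 (edgeR adjusted p = 3.86e-08).

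In the Notch pathway, ligands are made by the neurogenic cell and the Hes genes respond in the cell that receives the signal. The promoters below, from RefSeq with build GRCm38.p6, are shown because Hes5 is a Notch target that was higher in neurogenic cells in every library and Dll3 a ligand with one of the largest steps of the pathway. Each holds the 250 bases before the gene's start, 5′ to 3′ on the gene's strand. Capitals mark TGGGAA (or its reverse complement TTCCCA), the core letters bound by the Notch effector Rbpj, in Hes5, and CAGCTG, an E-box read the same on both strands, in Dll3.
Hes5: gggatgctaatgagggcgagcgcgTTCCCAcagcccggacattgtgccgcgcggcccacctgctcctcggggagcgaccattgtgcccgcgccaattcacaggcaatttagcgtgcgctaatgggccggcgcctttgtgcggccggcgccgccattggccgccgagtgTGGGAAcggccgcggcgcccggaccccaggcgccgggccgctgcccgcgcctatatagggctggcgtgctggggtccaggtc
Dll3: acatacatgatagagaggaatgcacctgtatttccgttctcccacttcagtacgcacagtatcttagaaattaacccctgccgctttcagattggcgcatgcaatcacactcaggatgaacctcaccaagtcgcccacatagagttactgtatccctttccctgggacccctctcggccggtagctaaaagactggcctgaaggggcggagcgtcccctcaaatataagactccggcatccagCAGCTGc
The Hes5 window (chr4:154960673-154960922, + strand) held 2 matches, which begin 226 and 82 bases before the start, and the Dll3 window (chr7:28301786-28302035, - strand) held 1, which begins 7 bases before it. Of 32851 promoter windows of this length, 21.6% held TGGGAA and 13.0% held CAGCTG on either strand, so a match is common and describes the letters only.

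All 5 Notch ligands tested were higher in neurogenic cells in all 6 libraries, with a median step of 2.74. Dll1 had steps of 2.88 and 2.71 in Bax null and 2.51 to 2.85 in the Atoh7 null libraries, a difference of -0.10 (edgeR adjusted p = 0.673). Dll3 had 3.73 and 3.41 against 3.54 to 4.06 (difference 0.13, edgeR adjusted p = 0.655), and Dll4 5.54 and 5.90 against 5.23 to 6.60 (difference -0.09, edgeR adjusted p = 0.901). The groups overlapped for all 3 delta-like ligands. Jag1 had a larger step in the Atoh7 null libraries, 1.59 to 1.99 against 0.98 and 0.42 (difference 1.13, edgeR adjusted p = 2.14e-04). Dner, an atypical ligand, had a smaller one (difference -1.12, edgeR adjusted p = 9.18e-03).

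Of 14 receptors, modifiers and effectors of the pathway, 1 had a higher and 3 a lower step in the Atoh7 null libraries (6.44% and 5.39% of all genes tested). Notch1 was higher in neurogenic cells by 1.42 and 1.33 in Bax null and 1.43 to 1.51 in the other libraries, with no difference past the test (0.09, edgeR adjusted p = 0.315). Notch3 had steps of -1.22 and -0.92 against -1.34 to -1.91 (difference -0.66, edgeR adjusted p = 5.71e-03). The glycosyltransferases Lfng and Mfng, which modify Notch receptors, had smaller positive steps, by -0.42 and -0.30. Without Bax null replicate 2 neither passed (edgeR adjusted p = 0.0996 and 0.151), and Mfng was also lost without any of 3 other single libraries (edgeR adjusted p = 0.0571 to 0.175). Rbpj, the DNA-binding effector, stood at 82.8 and 81.3 CPM in Bax null RPCs and 43.8 to 65.9 CPM in Atoh7 null RPCs, and in neurogenic cells at 230.2 and 208 against 188 to 274 CPM. On this TMM scale its groups overlapped in neurogenic cells and not in RPCs. The step of Rbpj was 1.47 and 1.35 against 2.0 to 2.10, a difference of 0.65 ± 0.05 (SE, edgeR adjusted p = 3.06e-12), and 0.32 in the shared clusters.

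Of 6 Notch targets, 5 had a lower step in the Atoh7 null libraries: Hes1, Hes5, Hey1, Heyl and Nrarp (median difference -0.53). Hey2 did not pass the test. Hes1 (chromosome 16, 30064384-30067796, + strand), the repressor that holds progenitors undifferentiated, stood at 2072 and 2220 CPM in Bax null RPCs, 220.1 and 221 in combined null RPCs, and 357 and 319.5 in Bax het RPCs. Its neurogenic levels were 884 and 1079, 73.3 and 61.6, and 96.5 and 80.3 CPM. Bax null libraries thus held several times more Hes1 RNA in both cell types, a gap that the step does not count; what sets it was not tested. Its steps of -1.23 and -1.04 against -1.59, -1.84, -1.89 and -1.99 differed by -0.69 ± 0.06 (SE, edgeR adjusted p = 3.29e-12), and by -0.31 in the shared clusters.

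Hes5 went the other way from Hes1 across the transition. Neurogenic cells held 1013 and 905 CPM in Bax null and 766 to 1003 CPM in the Atoh7 null libraries, beside 404 and 411 and 369 to 479 CPM in RPCs. Its steps were 1.33 and 1.14 in Bax null and 1.05 to 1.10 in the other 4, a small difference of -0.15 ± 0.04 (SE, edgeR adjusted p = 6.91e-03). Without Bax null replicate 1 it was -0.06 (edgeR adjusted p = 0.587) and without replicate 2 -0.25 (edgeR adjusted p = 4.71e-03).

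Hey1 (chromosome 3, 8663359-8667256, - strand), a related repressor, differed mainly on the RPC side. RPCs held 18.7 and 14.8 CPM in Bax null against 34.4, 37.7, 34.6 and 40.3 CPM in the Atoh7 null libraries, while neurogenic cells held 36.6 to 40.2 CPM in all 6. Without TMM factors the neurogenic levels differed too, at 31.5 and 30.0 against 40.4 to 48.2 CPM. The steps of 1.10 and 1.37 in Bax null compared with 0.16, 0.09, 0.17 and -0.14 elsewhere, a difference of -1.17 ± 0.11 (SE, edgeR adjusted p = 8.01e-11). Hey1 was thus higher in neurogenic cells than in RPCs by over 2-fold in Bax null and at nearly the same level in both types in the Atoh7 null libraries. The 15 neurogenic markers summed were also higher in Atoh7 null RPCs, as given above, and their part in this difference was not tested.

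All 10 proneural bHLH genes tested were higher in neurogenic cells in every library (median step 3.73), and 2 had a larger and 2 a smaller step in the Atoh7 null libraries. Neurog2 (chromosome 3, 127633135-127635631, + strand), which acts before Atoh7 in many retinal precursors, stood at 342 and 283 CPM in Bax null neurogenic cells and at 606, 794, 729 and 723 CPM in the Atoh7 null libraries. In RPCs it stood at 54.0 and 44.9 against 63.9 to 76.8 CPM. The groups did not overlap in either type, and the steps of 2.66 and 2.65 against 3.17 to 3.51 differed by 0.69 ± 0.07 (SE, edgeR adjusted p = 1.50e-10). It was 0.33 in the shared clusters (edgeR adjusted p = 7.61e-05).

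The share of cells with a Neurog2 UMI gave the same order. After thinning each cell to 1000 UMIs, it was 21.6% and 17.3% of Bax null neurogenic cells and 42.2% to 49.2% of Atoh7 null neurogenic cells (unthinned, 48.9% and 46.2% against 56.4% to 65.9%). In RPCs the thinned share was 3.78% and 2.85% against 6.39% to 7.52%. Free RNA in the droplets may add to it, and its part was not tested. Thinning left out shallower cells in 4 libraries, most of all in replicate 2 of the combined null, where 2211 of 2482 neurogenic cells remained.

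Neurod4 and Ptf1a, the latter a factor of horizontal and amacrine cells, had smaller steps in the Atoh7 null libraries by -1.15 and -1.39. Leaving out Bax null replicate 2 ended both calls (edgeR adjusted p = 0.513 and 0.226), as did leaving out replicate 1 of the combined null (0.191 and 0.533 by the same test) or replicate 1 of the Bax het group (0.143 and 0.208); without Bax null replicate 1, Ptf1a was also lost (edgeR adjusted p = 0.106) and Neurod4 moved to -1.74. Neurod1, a factor of photoreceptor and amacrine precursors, had steps of 4.49 and 4.64 against 4.28 to 4.81 (difference -0.06, edgeR adjusted p = 0.755). A like step is not a like level. At 1000 UMIs per cell, 24.1% and 21.8% of Bax null neurogenic cells held a Neurod1 UMI, against 39.8% to 50.7% elsewhere (unthinned 51.2% and 47.0% against 57.0% to 71.4%). In RPCs the thinned share was 1.06% and 1.03% against 2.18% to 3.65%.

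Of 17 other genes of the transition, 14 were higher in neurogenic cells in all 6 libraries (25.8% of all genes tested were), with a median step of 2.43. Btg2, Pcdh17, Insm1 and Rprm had higher steps in the Atoh7 null libraries, and Gadd45a, Btg1, Sstr2 and Rgs16 lower ones. These 4 lower calls were all lost without Bax null replicate 1 (edgeR adjusted p = 0.0769 to 0.174), and Btg1 and Sstr2 also without replicate 2 (edgeR adjusted p = 0.0693 and 0.136). Sstr2 was lost as well without replicate 1 of the combined null (edgeR adjusted p = 0.105). Btg2 (chromosome 1, 134075170-134079120, - strand), an antiproliferative gene that marks precursors in a neurogenic division, stood at 388 and 340 CPM in Bax null neurogenic cells and 814, 630, 803 and 599 CPM in the Atoh7 null libraries. Its RPC levels overlapped, at 81.8 and 81.5 against 59.8 to 103 CPM. Without TMM factors they did not, at 62.2 and 61.4 against 72.0 to 117 CPM. The steps of 2.25 and 2.06 against 2.98 to 3.39 differed by 0.99 ± 0.06 (SE, edgeR adjusted p = 3.96e-15), and by 0.78 in the shared clusters. Pcdh17, a protocadherin, differed by 1.02 and, in the shared clusters, by 0.40 (edgeR adjusted p = 7.67e-03). Insm1, a zinc finger factor of neurogenic divisions, differed by 0.39, but by 0.01 in the shared clusters (edgeR adjusted p = 0.969), and by 0.28 without Bax null replicate 2 (edgeR adjusted p = 0.0782).

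Insm2, a relative of Insm1 on chromosome 12 (55599427-55602086, + strand), had the lowest step difference among called genes at 20 CPM on both sides. Neurogenic cells held 49.8 and 39.6 CPM in Bax null and 31.4 to 43.9 CPM in the Atoh7 null libraries, which overlap. RPCs held 0.545 and 0.681 CPM against 2.20 to 2.71 CPM, without overlap, beside the higher sum of neurogenic markers in Atoh7 null RPCs. The steps of 6.21 and 5.62 against 3.47 to 4.24 differed by -2.21 ± 0.25 (SE, edgeR adjusted p = 1.69e-08).

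**Figure D3:**
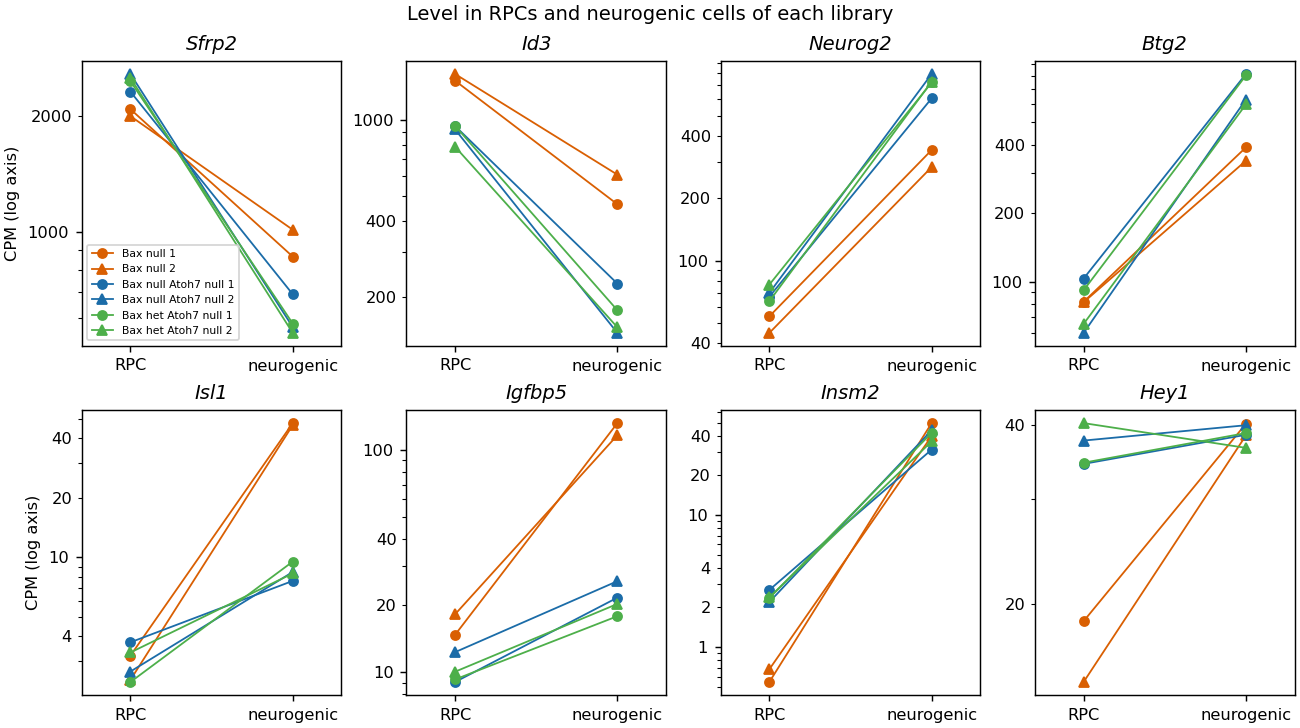
Levels (CPM, log axis) in RPCs and neurogenic cells of each library, joined by a line per library, for Sfrp2, Id3, Neurog2, Btg2, Isl1, Igfbp5, Insm2 and Hey1. On this TMM scale Isl1 and Igfbp5 separate the genotypes in neurogenic cells, Insm2 and Hey1 in RPCs.

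Genes of ganglion cell fate were higher in neurogenic cells in all 6 libraries for 16 of the 22 tested, and 10 had a smaller step in the Atoh7 null libraries, 0 a larger one (Ebf1 reached an unadjusted p under 0.05), with a median difference of -0.51. Among them were Isl1, Eya2, Irx3, Irx5, Klf7, Dlx1, Dlx2, Barhl2 and Onecut2. Klf7 and Dlx1 lost the call without Bax null replicate 1 (edgeR adjusted p = 0.176 and 0.269) and Irx3 and Onecut2 without replicate 2 (edgeR adjusted p = 0.197 and 0.136). Dlx1 also lost it without replicate 1 of either Atoh7 null group (edgeR adjusted p = 0.0574 and 0.143). Isl1 (chromosome 13, 116298281-116309689, - strand) is a LIM homeobox factor needed for ganglion cell differentiation. It stood at 47.5 and 46.4 CPM in Bax null neurogenic cells and at 7.62, 8.45, 9.53 and 8.31 CPM in the Atoh7 null libraries. RPC levels were 2.36 to 3.74 CPM in all 6 and overlapped. Without TMM factors they did not overlap, at 2.44 and 1.82 against 2.60 to 4.23 CPM. The steps of 3.84 and 4.19 against 1.0, 1.62, 1.96 and 1.29 differed by -2.60 ± 0.19 (SE, edgeR adjusted p = 2.66e-13), and by -3.02 in the shared clusters. At 1000 UMIs per cell, 3.25% and 2.65% of Bax null neurogenic cells held an Isl1 UMI (unthinned 12.1% and 12%) and 0.588% to 0.878% of Atoh7 null ones (unthinned 1.21% to 2.18%), where RPCs gave 0.169% to 0.400%.

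Eya2 and Dlx2 also had smaller steps. Eya2, a transcriptional coactivator, stood at 94.1 and 75.2 CPM in Bax null neurogenic cells and 15.4 to 19.5 CPM in the Atoh7 null libraries. Its RPC levels did not overlap either, at 2.45 and 2.28 against 0.463 to 1.46 CPM, so both types were lower. Its step differed by -1.04 ± 0.23 (SE, edgeR adjusted p = 1.62e-03), a call lost without replicate 1 of the combined null (-0.57, edgeR adjusted p = 0.333). Dlx2, a homeobox factor, stood at 94.9 and 70.1 against 39.1 to 59.0 CPM in neurogenic cells, with RPC levels that overlapped (1.70 to 3.32 CPM in all 6). Without TMM factors the neurogenic levels overlapped instead, at 74.5 and 54.7 against 44.2 to 71.1 CPM. RPC levels then did not, at 1.71 and 1.28 against 2.14 to 3.65 CPM. The step of Dlx2 differed by -1.12 ± 0.17 (SE, edgeR adjusted p = 8.02e-06). Pou4f2, a ganglion cell factor below 20 CPM in neurogenic cells, differed by -1.15 without passing the test (edgeR adjusted p = 0.165). The 8 ganglion cell markers did not move together in neurogenic cells. Of these, 4 were lower in all 4 Atoh7 null libraries: Isl1, Pou4f2 (1.03 to 2.63 against 7.30 and 8.81 CPM), Sncg (0.462 to 2.20 against 8.87 and 14.6 CPM) and Nefl. Stmn2 (458 to 553 against 219 and 207 CPM), Gap43 and Ebf3 were higher, and Nefm overlapped. The part of these markers in the steps was not tested.

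Igfbp5 (chromosome 1, 72857932-72874884, - strand), a secreted binding protein of insulin-like growth factors, and Nr2f6, an orphan nuclear receptor, are in none of the lists. Igfbp5 stood at 132 and 117 CPM in Bax null neurogenic cells and 17.9 to 25.7 CPM in the Atoh7 null libraries, and its step differed by -1.84 ± 0.12 (SE, edgeR adjusted p = 1.32e-14). Nr2f6 was higher in neurogenic cells than in RPCs in Bax null (steps 1.02 and 0.97) and lower in all 4 Atoh7 null libraries (-0.17 to -0.40). Its neurogenic level was 141 and 136 CPM against 40.5 to 48.9 CPM, and its step differed by -1.29 ± 0.07 (SE, edgeR adjusted p = 5.84e-18).

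Genes of other fates were tested as 2 lists. Over all genes tested, 6.44% had a higher and 5.39% a lower step in the Atoh7 null libraries. Of 11 photoreceptor genes tested, 3 had a lower step in the Atoh7 null libraries, among them Prdm1 (difference -1.16, and -0.78 with edgeR adjusted p = 0.146 without Bax null replicate 2; -1.93 in the shared clusters) and Casz1 (-0.94), a zinc finger factor of progenitors with steps of -0.76 and -0.64 in Bax null and -1.30 to -1.83 elsewhere. The third, Isoc1, was lost without Bax null replicate 2 as well (edgeR adjusted p = 0.212). Otx2, which cones and rods need, had a difference of 0.21 that did not pass the test (edgeR adjusted p = 0.143). Of 12 horizontal and amacrine genes tested, Tfap2c and Foxn4 had higher steps and Tfap2b, Ptf1a, Meis1 and Barhl2 lower ones. The Foxn4 difference of 0.23 turned to -0.04 in the shared clusters and was lost without Bax null replicate 2 (edgeR adjusted p = 0.307) or replicate 2 of the Bax het group (edgeR adjusted p = 0.0571). Tfap2b (-1.91) was lost without Bax null replicate 1 (-1.31, edgeR adjusted p = 0.0911).

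Of 25 pan-neuronal genes, 22 were higher in neurogenic cells in all 6 libraries (median step 1.36). In the Atoh7 null libraries 3 had a higher and 4 a lower step, where 19.8% of all genes at 20 CPM were called in either direction. Gap43, a growth cone protein, stood at 41.6 and 45.3 CPM in Bax null neurogenic cells and at 81.9, 100.3, 72.7 and 94.5 CPM in the Atoh7 null libraries, with RPCs at 22.2 to 26.9 CPM throughout. Its steps of 0.66 and 0.82 against 1.60 to 2.17 differed by 1.12 ± 0.10 (SE, edgeR adjusted p = 9.73e-11). On the TMM scale Tubb3 and Elavl3, a neuronal tubulin and an RNA-binding protein, differed in the RPCs instead. Tubb3 RPC levels were 29.0 and 24.1 CPM in Bax null and 42.5 to 65.8 CPM elsewhere, neurogenic levels overlapped at 486 to 659 CPM, and the step differed by -0.85 (edgeR adjusted p = 2.23e-07; DESeq2 adjusted p = 0.186). Elavl3 differed by -0.78. In the same RPCs the neuronal gene Stmn2 was also higher in the Atoh7 null libraries, and the part of RNA from later cells in these steps was not tested.

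Fabp7, a fatty acid binding protein of progenitors and glia, had the highest step difference among called genes at 20 CPM on both sides. Neurogenic cells held 36.2 and 29.5 CPM in Bax null against 132, 149, 107 and 149 CPM in the Atoh7 null libraries. The steps of 2.28 and 1.23 against 3.03 to 3.51 differed by 1.64 ± 0.15 (SE, edgeR adjusted p = 1.29e-10), by 1.07 in the shared clusters, and by 1.05 without Bax null replicate 2 (edgeR adjusted p = 8.18e-05).

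In edgeR's test the cell cycle lists parted by phase. Over all genes tested, 6.44% had a higher and 5.39% a lower step in the Atoh7 null libraries. At 20 CPM or more stood 25 of the 26 S phase genes and all 26 genes of G2 and mitosis. Of all 5972 genes at that level, 685 were called higher and 498 lower. Of 26 S phase genes, 13 had a higher and 1 a lower step in the Atoh7 null libraries, with a median difference of 0.20. Of 26 genes of G2 and mitosis, 0 had a higher (Top2a at an unadjusted p under 0.05) and 13 a lower step, with a median difference of -0.18, although 23 of the 26 were higher in neurogenic cells than in RPCs in all 6 libraries. Rrm2, a subunit of ribonucleotide reductase, had steps of 0.88 and 0.70 in Bax null and 1.15 to 1.24 in the Atoh7 null libraries (difference 0.41, edgeR adjusted p = 2.70e-08). Ccne2, a cyclin of S phase entry, had the largest difference of the list (0.56), followed by Cdc45 (0.42), and E2f1 (-0.21) was the exception. Without Bax null replicate 2 only 5 of the 13 higher calls remained (Mcm7, Tyms, Uhrf1, Dtl, Fen1, Rpa2, Chaf1b and Dut were lost), and without replicate 1 only 8. Of the 13 lower calls of the G2 and mitosis list, 7 remained without Bax null replicate 1 (Ccna2, Bub1b, Tpx2, Cenpe, Birc5 and Nusap1 were lost) and 9 without replicate 2. With DESeq2 only Pcna, Rrm2, Slbp and Dut of the S phase list stayed called. Those lost included Ccne2 and Cdc45 (DESeq2 adjusted p = 0.0521 and 0.156). On the G2 and mitosis list DESeq2 lost Plk1 (DESeq2 adjusted p = 0.0738), Bub1b, Tpx2, Cenpe, Birc5 and Nusap1. Without TMM scaling Mcm7, Uhrf1, Rpa2 and Chaf1b were lost. Without Bax null replicate 1, Cdc45 and E2f1 did not pass (edgeR adjusted p = 0.129 and 0.127); E2f1 was also lost without Bax null replicate 2 (edgeR adjusted p = 0.229) or replicate 1 of the Bax het group (edgeR adjusted p = 0.0577). Ccnb2, a mitotic cyclin, had steps of 0.61 and 0.55 in Bax null and 0.14 to 0.29 in the Atoh7 null libraries (difference -0.40, edgeR adjusted p = 2.03e-07). Cdc20, which drives exit from mitosis, Plk1, a mitotic kinase, and Ccnb1 differed by -0.41, -0.36 and -0.36. The mitotic differences were larger in the shared clusters, at -0.72 for Ccnb2, -0.89 for Cdc20, -0.94 for Plk1 and -0.84 for Ccnb1, and those of Rrm2 and Cdc45 smaller, at 0.24 and 0.10 (edgeR adjusted p = 1.23e-04 and 0.675). The restriction to shared clusters itself left out RPC clusters led by mitotic genes. Among them were 95 (506 of 513 cells from Bax null) and 49 (10 of 529 cells from Bax null). The part of this loss in the shifted differences was not tested.

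The share of cells with at least 3 UMIs of the G2 and mitosis list after thinning to 1000 UMIs was 77.1% and 77.0% of neurogenic cells in Bax null and 60.2% to 62.2% in the Atoh7 null libraries. In RPCs it was 62.2% and 61.8% against 52.2% to 55.3%. Both types thus held more such cells in Bax null, and the gap was wider in neurogenic cells. The unthinned shares in neurogenic cells were 93.3% and 94.9% against 63.9% to 74.6%.

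**Figure D4:**
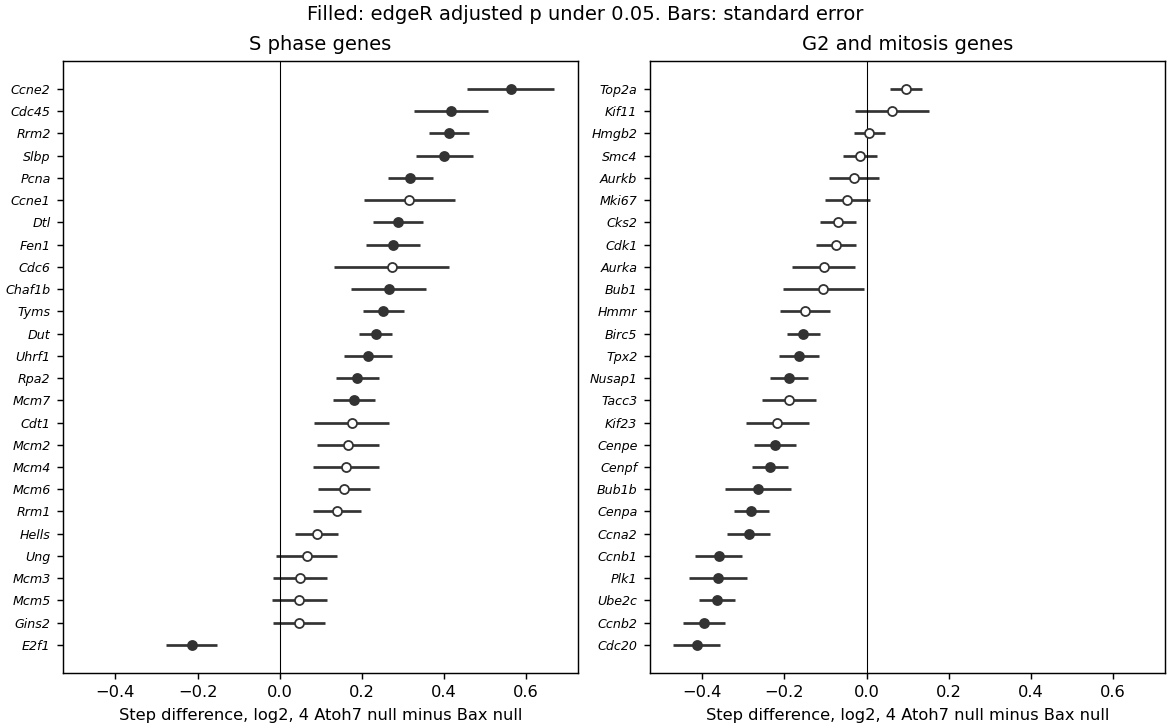
Step difference (log2, mean of the 4 Atoh7 null libraries minus Bax null) on the x axis for each S phase gene and each G2 and mitosis gene. Bars are standard errors and filled points passed edgeR's test; S phase genes lie mostly right of 0 (median difference 0.20) and G2 and mitosis genes mostly left of it (median difference -0.18).

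Of 6 cyclins and kinases of the G1 phase, 1 had a higher and 2 a lower step in the Atoh7 null libraries (6.44% and 5.39% of all genes tested). Ccnd1, the main D-type cyclin of the retina, had steps of -0.53 and -0.46 in Bax null and -0.43 to -0.55 elsewhere, a difference of 0.01 ± 0.04 (SE, edgeR adjusted p = 0.897). Ccnd2 and Ccnd3 had deeper steps in the Atoh7 null libraries by -0.58 and -0.37, and Cdk4 a larger one by 0.16. All 3 calls were lost in the shared clusters and without Bax null replicate 2 (edgeR adjusted p = 0.109, 0.0975 and 0.0962 in the latter), and the Ccnd2 difference was -0.88 without replicate 1 of the Bax het group. Of 8 genes of cell cycle exit that could be tested, 0 passed edgeR's test, with Rb1 at an unadjusted p of 0.0469. The cyclin-dependent kinase inhibitor Cdkn1c, which was lower in neurogenic cells in all 6 libraries, differed by 0.08 (edgeR adjusted p = 0.327).

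A list of 11 genes induced by tissue dissociation was lower in neurogenic cells (median step -1.14), with 8 of the 10 tested lower in all 6 libraries. In the Atoh7 null libraries 3 had a higher step (Jun, Ier2, Hsph1) and 2 a lower one (Fos, Egr1). In the shared clusters the Fos difference turned from -0.25 to 0.10, and without Bax null replicate 2 it was -0.17 (edgeR adjusted p = 0.293). Jun and Hsph1 lost the call without Bax null replicate 1 (edgeR adjusted p = 0.258 and 0.0712).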

How the data were processed

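Per the labels' protocols, cells were captured for single-cell RNA sequencing with version 2 of the 10x Genomics 3′ kit. The deposited matrix holds raw UMI counts per gene and cell, and the authors' deposited cell table gives each cell's library, type and cluster; Cell Ranger 1.2.1 and build mm10 are named, with no role, in the submitters' processing notes. Cells of 2 further libraries (26078 cells) in that table belong to no sample and were not used here. UMI counts were summed per library and type (12 profiles). No doublet caller was run; an alternative left out the 8% of cells highest in UMIs.

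Steps were fitted with edgeR 4.0.16 (quasi-likelihood, TMM, filterByExpr) in R 4.3.3, with library as a block and a step for each genotype (3 residual degrees of freedom). Calls needed a Benjamini-Hochberg adjusted p under 0.05. The steps printed per library are log2 CPM differences with a prior count of 2. DESeq2 1.42.0 and limma 3.58.1 served as alternatives. The restriction to shared clusters and the removal of shared barcodes and of neurogenic cluster 85 or 4 RPC clusters were chosen after seeing the data.

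Named genes were list members, the 10 highest and 10 lowest steps at 20 CPM in the same direction in all 6 libraries, and up to 12 of the highest and lowest called step differences at 20 CPM on both sides with steps that did not overlap. Names of Y-linked genes, Xist and Tsix were kept out. The members and lists were chosen with earlier results of these data known. Some genes, such as Hes5 and Ptf1a, belong to several lists, so the counts of different lists are not independent. Positions came from a GENCODE annotation of GRCm38, which holds 27645 of the 27998 gene identifiers. Replicate numbers did not pair the libraries: deviations of same-numbered libraries correlated at -0.02, 0.18 and -0.09 between groups, over 5972 genes.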

Additional observations from a re-analysis of the deposited data

Results flagged for a closer look

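The results here were picked out because the size of the step differed between genotypes by edgeR's test of that difference. The step of 1582 genes differed between the 4 Atoh7 null libraries and Bax null, that of 997 genes between the combined null and Bax null, and that of 1116 genes between the Bax het group and Bax null. The last 2 counts rest on the same Bax null libraries.

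The lowest differences (Atoh7 null step minus Bax null step, log2) among genes at 20 CPM on both sides, with steps that did not overlap, were those of Insm2 (-2.21), Igfbp5 (-1.84), Ankrd33b (-1.32), Nr2f6 (-1.29), the lysophosphatidic acid receptor Lpar1 (-1.20), Cp (-1.20), Etv5 (-1.20), Aldh1a3 (-1.19), Hey1 (-1.17), Prdm1 (-1.16), Dlx2 (-1.12) and the apical polarity gene Crb2 (-1.12). Of these, Lpar1 (-1.06 and -0.65 in Bax null, -1.81 to -2.14 in the others), Cp, Etv5, Aldh1a3 and Crb2 were lower in neurogenic cells than in RPCs in all 6 libraries. Aldh1a3 lost its call in the shared clusters (-0.46, edgeR adjusted p = 0.0704), and Prdm1 without Bax null replicate 2 (-0.78, edgeR adjusted p = 0.146). Ankrd33b lost it without Bax null replicate 2 (edgeR adjusted p = 0.104) or replicate 1 of the Bax het group (edgeR adjusted p = 0.0524).

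The highest differences were those of Fabp7 (1.64), the calcium channel subunit Cacna1a (1.32), Akr1b8 (1.23), Ostf1 (1.2), Gap43 (1.12), Igsf8 (1.02), Pcdh17 (1.02), Btg2 (0.99), Mfap4 (0.98), Cotl1 (0.93), the T-box factor Tbx3 (0.90) and the RNA-binding protein Celf4 (0.86). Celf4 stood out in that its step was -0.01 in both Bax null libraries and 0.75 to 0.95 in the Atoh7 null libraries.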

How the results depend on the processing

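With DESeq2 the counts of differing steps were 397 (4 Atoh7 null libraries against Bax null), 229 (combined null) and 284 (Bax het group), and in the classes 60 deeper, 32 larger and 16 smaller steps. Thinned to the smallest total, they were 996 for all 4 libraries, 738 for the Bax het group and 28 smaller steps. In the shared clusters, 43 steps were deeper and 33 larger. Between the Atoh7 null genotypes the count of 0 became 1 without scaling, 4 without a filter on low counts, 7 without cells under 1500 UMIs and 1 without shared barcodes. The cause of these shifts was not tested.

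Leaving out 1 library in turn gave 536 to 1538 genes for the 4 Atoh7 null libraries (536 without Bax null replicate 2, 964 without replicate 1), 321 to 966 for the combined null, 420 to 1298 for the Bax het group (423 without its replicate 2) and 0 to 16 between the Atoh7 null genotypes. Deeper steps numbered 64 to 108, larger ones 30 to 69 and smaller ones 28 to 47. With the replicate number as a block the counts were 1693, 1069, 1232 and 1; the numbers do not pair the libraries.

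Of the 1582 genes, 745 remained among the 1076 called in the shared clusters, 1262 without shared barcodes (1340 called) and 522 without Bax null replicate 2; without neurogenic cluster 85 the count was 1616. Of 121 named genes called, 59 were called under all 20 alternatives. Hes6 (-0.12), Foxn4 (-0.039) and Fos (0.10) turned sign in the shared clusters. Depth limits steps of genes under 20 CPM, and 2 libraries a group limit all tests.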

Other observations

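Some genes differed in step while standing under 20 CPM on one side, and were chosen here after their values were seen. Of the 1582 genes called, 1104 stood at 20 CPM or more on both sides, 47 in Bax null only, 81 in the Atoh7 null libraries only and 350 on neither. Gal, which encodes the neuropeptide galanin, stood at 491 and 456 CPM in Bax null neurogenic cells and at 3.37, 4.69, 3.34 and 3.08 CPM in the Atoh7 null libraries. In RPCs it stood at 7.77 and 7.08 CPM against 0.590 to 1.25 CPM. Its step differed by -3.95 (edgeR adjusted p = 1.47e-13). Plekhh2 and Acsl6 (an acyl-CoA synthetase) differed by -2.11 and -2.0 in the same way, at 21.3 to 29.5 and 21.3 to 25.4 CPM in Bax null neurogenic cells. In the other direction, Ehd4, an endocytic recycling protein, stood at 14.4 and 15.5 CPM in Bax null neurogenic cells and at 40.3 to 47.3 CPM in the Atoh7 null libraries (difference 1.42). Heg1 differed by 1.15, and Cthrc1 by 1.26, with neurogenic levels that overlapped (16.2 and 18.1 against 16.4 to 32.3 CPM) and RPC levels of 13.4 CPM in both Bax null libraries against 5.74 to 10.0 CPM.

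Neurogenic cluster 134 was drawn almost wholly from Bax null (277 of its 284 cells). It held 8.24% of Bax null and 0.0737% of Atoh7 null neurogenic cells. Some RPC clusters, such as 95 (506 of 513 cells) and 106 (415 of 432 cells), were also drawn almost wholly from Bax null. The 10 leading genes of cluster 134 included Mki67, Espl1 and Anln, and also Gm10263, Rps12-ps3, Gm8730 and mt-Nd3.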
